A study of Caenorhabditis elegans with 2 samples.

Results

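The genes described here encode the machinery of oxidative phosphorylation in the nematode Caenorhabditis elegans, and the measurement is how often NHR-90, a nuclear hormone receptor carrying a tag, was found beside them. They are 69 of 19973 protein-coding genes of the nuclear chromosomes, picked by their symbols in the Ensembl annotation. No measured value enters that rule, but the group was chosen with earlier results of these data known. By their known products 33 belong to complex I, 5 to complex II, 9 to complex III and cytochrome c, 7 to complex IV and 7 to complex V. The remaining 8, cox-10, cox-11 and cox-14 to cox-19, carry a subunit-like symbol but are known from their yeast and human relatives as assembly factors of complex IV, so they are given apart. The 12 protein-coding genes that the annotation places on the mitochondrial genome are not members, because only genes of the nuclear chromosomes were taken. None of the 4 peak lists used holds a peak there.

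The data are from chromatin immunoprecipitation followed by sequencing (ChIP-seq), which recovers DNA lying close to a chosen protein. Both samples, biological replicates 1 and 2, are whole hermaphrodite first-stage (L1) larvae of strain OP483, collected 6 h after synchronisation by starvation from bleached eggs. The strain has the unc-119(tm4063) mutation and the stable insertion wgIs483, which makes NHR-90 with GFP and FLAG at its C-terminal end, and the antibody was raised against GFP. The 2 samples form 1 group, and an untagged strain and the control library are not analysed here. Whole animals were used, so a weak peak in many cells and a strong one in few cannot be told apart. The labels do not say in which cells the transgene is active.

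Oxidative phosphorylation takes place in the inner mitochondrial membrane. Complexes I and II take electrons from NADH and succinate and pass them by ubiquinone to complex III, and cytochrome c carries them on to complex IV, which reduces oxygen. Complexes I, III and IV pump protons, and complex V, the ATP synthase, uses their return to make ATP. Worms depend on this pathway through larval growth, and mutants in gas-1, mev-1 and isp-1 are classic models of altered respiration and lifespan. Nuclear hormone receptors are DNA-binding transcription factors, a family much expanded in this species.

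The sequences at the centre of a leading peak of each complex, and of the assembly factors, show what the receptor was found on. Each covers the summit and 50 bases on either side in ce11 (RefSeq assembly WBcel235) and is written on the plus strand, which is also the gene's strand. They lie at chrIII:12905152-12905252 (cox-5A), chrIII:5228123-5228223 (atp-2, the second strongest of complex V), chrIII:10334085-10334185 (mev-1), chrX:12018089-12018189 (ucr-2.1), chrII:13872630-13872730 (ndub-8) and chrII:12679785-12679885 (cox-10). Capitals mark matches on either strand to 5 searched words. These are GAGAGA, then the longer word GAGACGCAG, then CACGTG, besides these AGGTCA, and lastly the short word GAGAC, which lies inside the longer one. Of the 6 sequences, ndub-8 holds 4 matches and mev-1 and atp-2 hold 1 each, while cox-5A, ucr-2.1 and cox-10 hold none.
cox-5A: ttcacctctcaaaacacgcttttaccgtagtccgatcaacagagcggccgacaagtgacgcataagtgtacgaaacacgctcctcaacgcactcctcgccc
atp-2: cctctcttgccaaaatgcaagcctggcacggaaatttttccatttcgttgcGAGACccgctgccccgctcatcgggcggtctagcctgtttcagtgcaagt
mev-1: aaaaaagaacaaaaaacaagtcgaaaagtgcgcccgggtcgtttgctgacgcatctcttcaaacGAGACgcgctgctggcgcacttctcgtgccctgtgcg
ucr-2.1: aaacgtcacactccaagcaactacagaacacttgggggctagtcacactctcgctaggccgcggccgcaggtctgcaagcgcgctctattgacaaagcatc
ndub-8: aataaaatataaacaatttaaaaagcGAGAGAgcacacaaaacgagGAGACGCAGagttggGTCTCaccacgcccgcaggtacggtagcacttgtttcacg
cox-10: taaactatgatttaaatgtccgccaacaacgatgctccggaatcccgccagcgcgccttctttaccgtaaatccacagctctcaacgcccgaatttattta

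Of the oxidative phosphorylation genes 40 carried an NHR-90 peak near their 5′ end, led by cox-5A of complex IV, atp-1 of complex V and ndub-8 of complex I. A gene is called bound when any of its transcripts starts near a summit of the authors' final list, with the summit at most 1000 bp before that start or 200 bp past it. By that rule 40 of the 69 members were bound, or 58.0%, against 14.7% of all protein-coding genes and 18.4% of the 10896 with a letters-and-number symbol. The share was 42.0% (29 members, against 11.2%) when each summit went only to the nearest coding 5′ end, and 43.5% (30 members, against 8.59%) on the stronger part of the list. No set test was made, since genes and peaks are not replicates and the members were chosen with earlier results of these data known. The authors' final list holds 4133 peaks, the strongest of 30000 candidates called on both replicates together, and its signals, the authors' own values without a stated scale, run from 69.4 to 1699.5. A candidate of any strength lay in the window of 59 members, 85.5%, against 45.4% of all protein-coding genes. Counting a gene with no candidate as last, the strongest candidate of the median member ranked 2620 of 30000, while the median protein-coding gene had none. The 40 bound members had a median signal of 219.3, with quartiles of 126.9 and 320.9, and the 2927 bound protein-coding genes 143.5, with quartiles of 95.9 and 243.1.

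**Figure D1:**
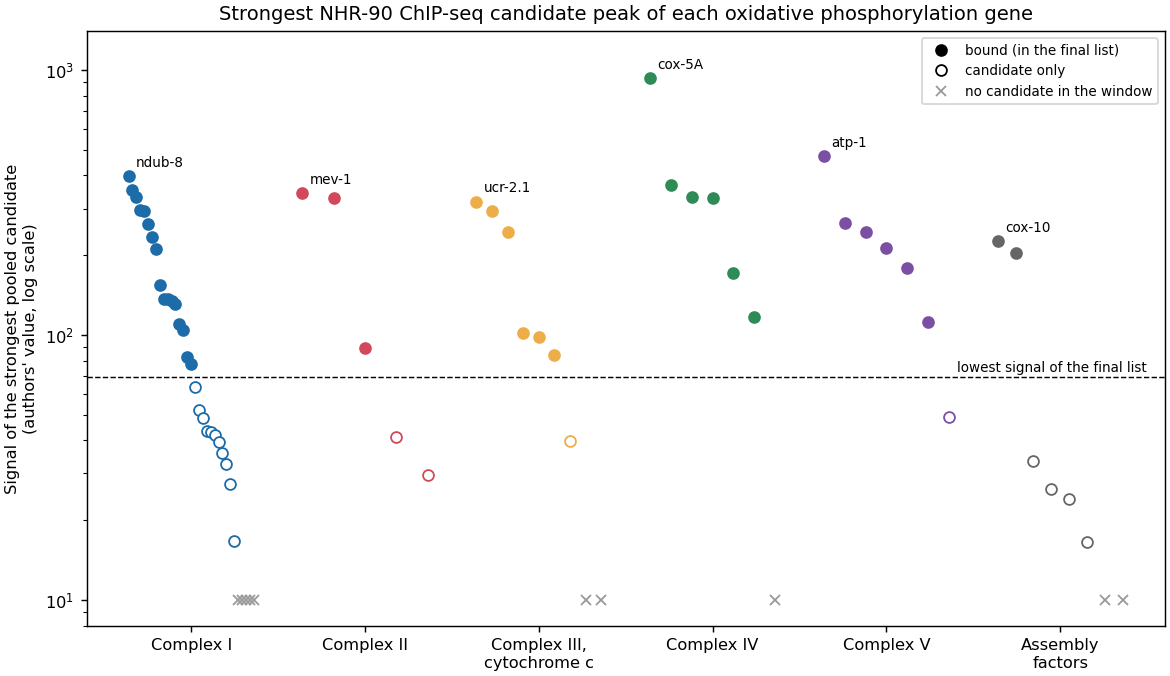
Signal of the strongest pooled candidate peak in the promoter window of each of the 69 genes, on a log axis, by complex; filled points are bound, open points have a candidate below the final list and crosses have none, and the dashed line is the lowest signal of the final list (69.4). Complexes IV and V have 1 unbound gene each, and complexes I, III and IV and the assembly factors each include genes with no candidate.

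The count of bound genes ran from 6 of 7 in complexes IV and V to 17 of 33 in complex I, by complex. Complex III with cytochrome c had 6 of 9 and complex II had 3 of 5, and the assembly factors had 2 of 8. Median ranks of the strongest pooled candidate followed a like order, 433 for complex IV, 945 for complex V, 2726 for complex III, 3033 for complex II, 3599 for complex I and 15336.5 for the assembly factors. With 5 to 9 genes in most groups these are counts to be read as such, and the differences between complexes were not tested.

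Complex I, the NADH dehydrogenase and largest of the complexes, was bound at 17 of 33 genes, with signals from 77.9 to 396.7. The strongest was ndub-8, an accessory subunit of the membrane arm, at 396.7 (rank 291 of the final list). Its strongest candidate had a signal of 213.3 in replicate 1 and 180.7 in replicate 2, ranking 267 and 330 there. The peak spans chrII:13872573-13872806, with its summit 189 bp upstream of the gene in intergenic DNA shared with the divergent gene cup-14. Next came ndua-8 at 351.4, whose summit lay 240 bp upstream of it but only 134 bp upstream of rbc-2, a gene on the opposite strand. For nduc-2 the value was 331.8, and nduf-11 had 295.8. The nduc-2 summit was 804 bp upstream, where the same peak counts for cox-6B of complex IV, whose end overlaps the start of nduc-2, and for Y71H2AM.20, the nearest. In replicates 1 and 2 the ranks were 422 and 351 for ndua-8, 483 and 342 for nduc-2 and 445 and 760 for nduf-11. The peaks span chrIII:2528720-2528959, chrIII:2785948-2786164 and chrII:11345704-11345915, and the nduf-11 summit was 184 bp upstream. Only nduf-11 of these 4 had no other coding gene within reach of its summit.

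Complex I has a catalytic core that carries flavin and iron-sulfur clusters and binds the quinone, and a larger set of accessory subunits. Of 8 nuclear core genes 5 were bound, and of the 25 accessory genes 12 were. The 5 were nduf-2.2 (262.6), ndus-8 (211.0), nuo-2 (154.0), nuo-1, the flavin-binding subunit (130.3), and gas-1, a quinone-site subunit (77.9). The nduf-2.2 summit was 851 bp from its 5′ end and 592 bp from that of dlc-1, a dynein light chain gene on the other side. The unbound core genes were nduf-7, nduv-2 and nuo-5. The further bound accessory genes were ndua-2 (292.6), nduv-3 (235.0), nduf-9 (136.7), nduf-6 (136.3), ndua-1 (134.8), ndua-5 (109.9), ndua-7 (104.5) and ndub-7 (82.6).

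The 16 unbound genes of complex I ranged from just below the final list to no candidate at all. Their strongest pooled candidates ranked 4551 for nduf-7, 5754 for ndub-5, 6257 for nduv-2, 7264 for ndub-3, 7285 for ndub-11, 7536 for nuo-6, 8121 for ndua-13, 9284 for ndub-6, 10597 for lpd-5, 13457 for ndub-10 and 26823 for nduf-5. The genes nuo-3, nuo-4, nuo-5, ndua-12 and ndub-2 had no pooled candidate in their windows. Of the 16, nduf-7 alone was among the strongest 4133 of a replicate, ranking 3869 in replicate 2 and 5535 in replicate 1.

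Complex II, succinate dehydrogenase, also works in the citric acid cycle. Its cytochrome b anchor subunit mev-1 had a signal of 343.5, with 202.7 in replicate 1 and 141.5 in replicate 2 (ranks 304 and 552). The summit was 142 bp upstream of mev-1 and 117 bp upstream of jmjd-4, so it lies between divergent genes and nearer to the second. The flavoprotein gene sdha-1 had 329.2 (ranks 448 and 396), with the summit 214 bp upstream and in its window no other coding gene. The peaks of mev-1 and sdha-1 span chrIII:10334039-10334259 and chrX:8546123-8546352. The other anchor gene, sdhd-1, had 89.5, at chrII:11049880-11050279 and 167 bp upstream, shared with ilkp-1. The sdhd-1 peak ranked 2735 in replicate 1 and 4693 in replicate 2, outside the strongest 4133 of the latter. The iron-sulfur subunit gene sdhb-1 (pooled rank 7686) and the sdha-1 paralog sdha-2 (11954) were not bound.

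Complex III, the cytochrome bc1 complex, had its strongest peaks at paralogous genes for a core subunit on the X chromosome. Signals were 318.8 at ucr-2.1 and 293.7 at ucr-2.2, with ranks of 440 and 665 in replicate 1 and 498 and 452 in replicate 2. The ucr-2.1 summit lay 290 bp upstream of it and 96 bp upstream of the divergent nmat-1, an NAD synthesis gene. The ucr-2.2 summit was 216 bp upstream and unshared, and the peaks span chrX:12018034-12018246 and chrX:15173592-15173802. Cytochrome c1, encoded by cyc-1, had 244.2 (ranks 636 and 980), unshared and 311 bp upstream at chrI:8024643-8024823. The other core subunit gene, ucr-1, had 98.2, and ucr-11 had 84.1 with its summit 34 bp downstream of the 5′ end, the only bound member whose summit was downstream and in a coding exon. Of the cytochrome c genes, cyc-2.1 was bound at 101.8 (ranks 3086 and 2243), in a peak at chrIV:4748402-4748801 that tctn-1 also has in its window. That summit was 153 bp upstream of one annotated 5′ end but within an intron of the gene, and a weaker one (72.7) was 172 bp downstream. The Rieske iron-sulfur gene isp-1 was not bound, with a pooled rank of 8053, 4359 in replicate 1 and no candidate in replicate 2. Neither cyc-2.2 nor ucr-2.3 had a candidate in any of the pooled and replicate lists.

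Complex IV, cytochrome c oxidase, held the strongest peak of the whole group. At cox-5A the signal was 928.6, rank 29 of the final list, and the strongest candidates were 473.1 in replicate 1 and 458.4 in replicate 2 (ranks 33 and 22). The peak spans chrIII:12905056-12905356 in intergenic DNA, with its summit 289 bp upstream of cox-5A, and no other coding gene had it in its window. After it came cox-6A (367.3), cox-6B (331.8), cox-5B (327.4), cox-4 (171.4) and cox-6C (116.5). Ranks in replicates 1 and 2 were 272 and 382 for cox-6A, 483 and 342 for cox-6B and 407 and 502 for cox-5B. Their peaks span chrIII:5080814-5081054, chrIII:2785948-2786164 and chrI:9788572-9788787, and the cox-5B summit was 37 bp upstream with no other coding gene. The cox-6A summit was 800 bp upstream, beside a gene annotated as snRNA, with a second summit of 75.6 at 601 bp. The cox-6B summit counts from the shorter of its annotated transcripts, 154 bp away, since the other one begins far upstream. In complex IV only cox-7C had no pooled candidate, with a replicate 1 candidate at rank 27794.

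Complex V, the ATP synthase, was bound at 6 of 7 genes, both in its catalytic head and in its stalk and membrane part. The α and β subunits of the head, atp-1 and atp-2, had signals of 475.3 and 264.6. The atp-1 candidates were 228.7 in replicate 1 and 241.3 in replicate 2 (ranks 225 and 162), and the summit lay 4 bp upstream of its 5′ end. The atp-2 summit was 244 bp upstream, with ranks of 535 and 778. The atp-1 peak, chrI:12652143-12652396, is shared with mcrs-1, and the atp-2 peak, chrIII:5228055-5228274, with C34E10.10 and C34E10.12. Of the stalk, atp-5 had 245.3 (ranks 805 and 739, 278 bp upstream, at chrV:11124056-11124237), atp-3 178.5 and atp-4 112.3. The atp-5 summit is shared with lmtr-3 and lay nearer to it, 41 bp from its 5′ end. The subunit g gene asg-2 had 212.0 (ranks 969 and 905), 203 bp upstream at chrX:6840982-6841140 and shared with glr-6, and its paralog asg-1 was not bound (pooled rank 6230).

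Of the complex IV assembly factors 2 of 8 were bound, beside 14.7% of all protein-coding genes. The bound ones were cox-10, which makes the haem O precursor of the enzyme's haem, at 226.5 and cox-14 at 204.1. Their peaks span chrII:12679747-12679929 and chrIII:10218692-10218881, with summits 119 and 153 bp upstream. Both summits are shared, that of cox-10 with Y38E10A.33 (189 bp) and that of cox-14 with rde-4, which is nearer (143 bp). Replicate ranks were 847 and 880 for cox-10 and 1223 and 816 for cox-14. The pooled ranks of the others were 10171 for cox-16, 14457 for the copper-delivery gene cox-11, 16216 for the haem A synthase gene cox-15 and 27081 for cox-19, and cox-17 and cox-18 had no pooled candidate. Of these 8 genes 5 lie within 150 bp behind another gene on the same strand, an arrangement whose counts follow further on. The part of that spacing in the count was not tested.

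Several subunits have paralogs, and in most such families a bound and an unbound copy stood side by side. These were sdha-1 and sdha-2, cyc-2.1 and cyc-2.2, asg-2 and asg-1, and ucr-2.1 with ucr-2.2 against ucr-2.3. The pair gas-1 and nduf-2.2 was bound at both genes. Related genes outside the 69 were mixed. The ATP synthase inhibitor genes mai-1 and mai-2 were both bound, whereas asb-2 of the ATP synthase was bound (286.6) and asb-1, its germline-expressed paralog, was not, and of 4 adenine nucleotide carriers ant-1.1 was bound (470.8) and ant-1.2, ant-1.3 and ant-1.4 were not. These pairs were singled out after their values were seen.

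The bound members were compared between the replicates by rank. All 40 had a candidate in both replicates, and 38 were among the strongest 4133 of both, or 95.0%, against 82.1% of all bound protein-coding genes. The exceptions, sdhd-1 and ndub-7, were among the strongest in replicate 1 only. Bound members also had higher signals than all bound protein-coding genes (medians of 219.3 and 143.5), and the 2 shares were not compared at like signal. In 39 of 40 the ranks in the replicates lay within a factor of 2. Spearman's rho between them was 0.906 over 40 genes, which share 39 peaks. The final list, thresholded on reproducibility, holds the strongest candidates called on both replicates together, so rho is a description only. Of the 29 unbound members 13 had a candidate in both replicates, and none was among the strongest 4133 of both.

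**Figure D2:**
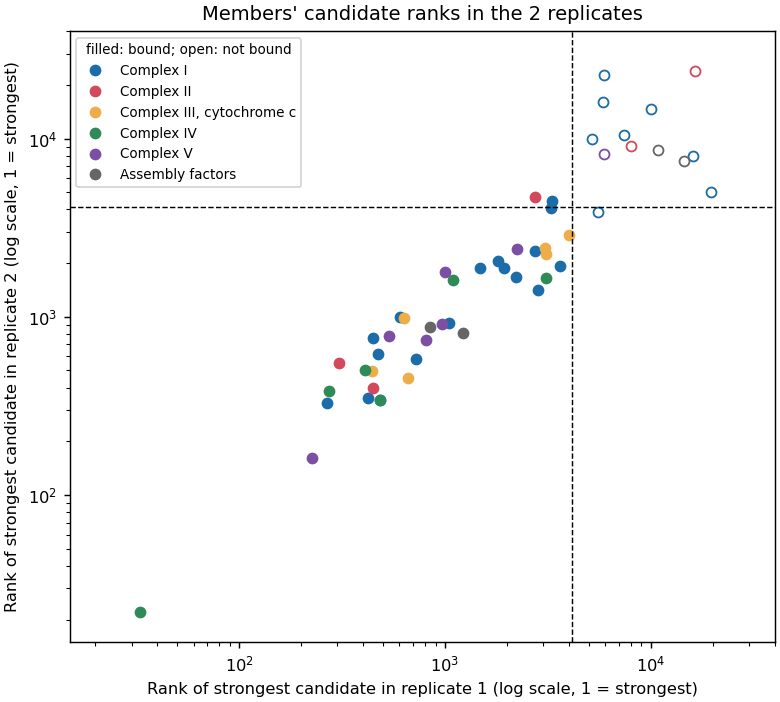
Rank of each gene's strongest candidate in replicate 1 and replicate 2, on log axes where 1 is the strongest peak; filled points are bound genes, open points unbound genes with a candidate in both, and the dashed lines mark rank 4133. Bound genes lie along the diagonal from cox-5A (33 and 22), and every unbound gene plotted lies past rank 4133 in replicate 1, with nduf-7 inside it in replicate 2 (3869).

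The members nearest the threshold are given for reference. The weakest bound members were ucr-11, ndub-7 and gas-1, with pooled signals of 84.1, 82.6 and 77.9 (ranks 3252, 3324 and 3599). The strongest unbound members were nduf-7, ndub-5 and asg-1, with 63.7, 52.1 and 48.8 (ranks 4551, 5754 and 6230).

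Summits lay upstream of the 5′ end at nearly all bound members, in a window that reaches 1000 bp upstream and only 200 bp downstream. The share of upstream summits over all bound genes was not counted. In 29 of 40, or 72.5%, the strongest summit was 0 to 300 bp upstream, against 55.9% of all bound protein-coding genes, and the medians were -234 bp and -232 bp. The summit was over 500 bp upstream at 4 members, nduc-2, nduf-2.2, nduf-9 and cox-6A (against 20.5% of all bound protein-coding genes). On the annotation, the strongest summit was intergenic at 26 bound members and in a noncoding gene at 8. It was in an intron at 3, in an untranslated exon at 2 and in a coding exon at 1. Of the 3 with an intronic summit, nduc-2 and cox-6B share the same one. These counts have no share over all bound genes beside them. Many worm transcripts are trans-spliced and annotated from the splice, so a distance here need not be to where transcription begins. Peak width went with signal: the 24 with a peak under 400 bp wide had signals of 171.4 or more, and the 16 with the common width of 400 bp had 178.5 or less.

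**Figure D3:**
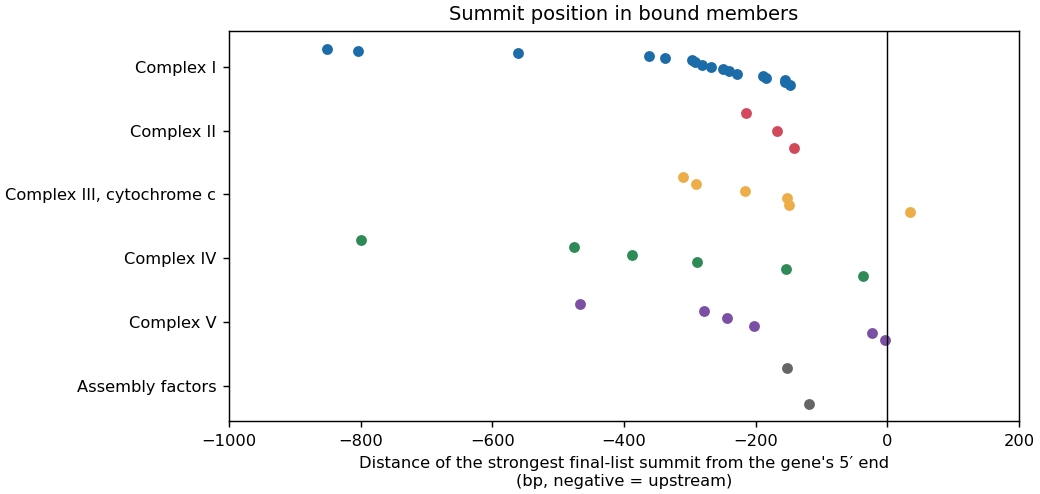
Distance of the strongest final-list summit from the nearest 5′ end of each of the 40 bound genes, in bp, negative upstream, by complex. Most points lie 100 to 300 bp upstream, the farthest is nduf-2.2 at -851 bp, and ucr-11 at 34 bp is the only one downstream.

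Many of these summits sit between neighbouring genes, so the gene they belong to is not settled by position. Of the 40 bound members 25 shared their strongest summit with the window of another protein-coding gene, 62.5%, against 46.7% of all bound protein-coding genes. In 11 of the 40 another coding gene's 5′ end was nearer to the summit. Giving each summit only to the nearest coding 5′ end left 29 of the 40 members, and 2243 of the 2927 bound protein-coding genes. The neighbours came from many pathways, among them the spindle checkpoint gene mdf-2 beside nduv-3, the asparaginyl-tRNA synthetase gene nars-1 beside nduf-6, the ribosomal protein gene rpl-36.A beside nuo-1, the splicing helicase gene ddx-15 beside ucr-1, lmtr-3, a lysosomal Ragulator gene, beside atp-5, and the RNA interference gene rde-4 beside cox-14. In 11 a noncoding gene other than a piRNA also had the summit in its window, with no share over all bound genes to set beside it.

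The members were also split by the gene next door. In worms, closely spaced genes on the same strand are often transcribed together as operons, the downstream ones without a promoter of their own. Of the 13 members within 150 bp behind a same-strand gene, 4 were bound (30.8%), against 9.66% of the 1573 protein-coding genes so placed. Of 36 members facing away from a divergent gene within 1000 bp, 21 were bound (58.3%), against 31.5% of 3435, and of the other 20, 15 were bound, against 11.3% of 14965. Members exceeded the genome's share in each arrangement. The gap limit was chosen after the values were seen, and the annotation used does not name operons.

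**Figure D4:**
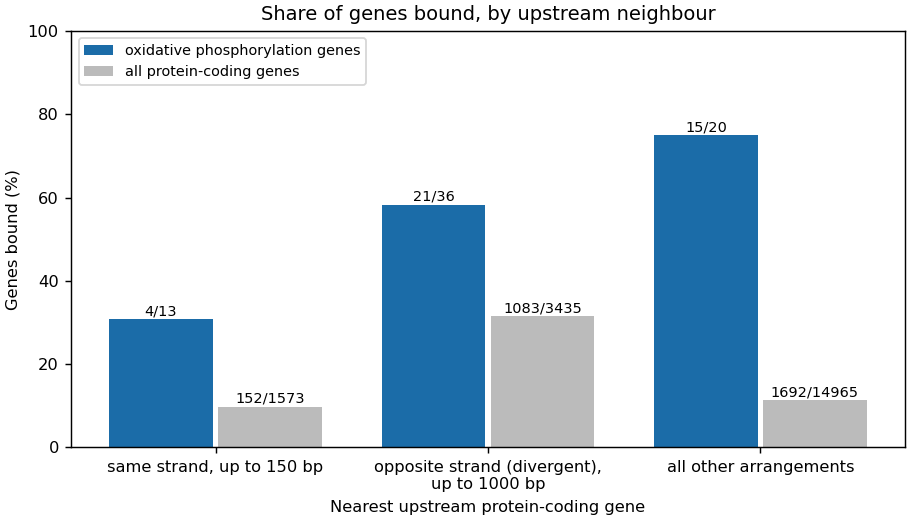
Percentage of genes bound, by the nearest upstream protein-coding gene, for the oxidative phosphorylation genes (blue) and all protein-coding genes (grey), with counts of bound over all genes above the bars. The blue bars stand for 4 of 13, 21 of 36 and 15 of 20 genes and the grey bars 9.66%, 31.5% and 11.3%.

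The 9 unbound genes in the close arrangement, with gaps of 94 to 118 bp, were ndub-2, ndub-10, nuo-4, nuo-5, cox-11, cox-15, cox-17, cox-18 and cox-19. For 3 of them the gene in front was itself bound: Y55F3AR.2 before cox-18 (514.6), Y45G12B.2 before nuo-5 (148.3) and exos-3 before ndub-10 (101.8), with summits 3089, 4371 and 1238 bp from the member's own 5′ end. The genes in front of the other unbound members, F44G4.1, rnp-7, JC8.4, cchl-1, F45H11.8 and ubc-20, were not bound. The 4 bound ones were nuo-2, cyc-2.1, ucr-11 and atp-4. Of these only nuo-2 had an unbound gene in front, and alh-4 before atp-4 had 141.0. In all, the gene in front was bound for 6 of the 13 members so placed, and the like share over all protein-coding genes was not counted. Behind rpl-20, a ribosomal protein gene with the fifth strongest peak of the final list (1247.7), cyc-2.1 lies 110 bp away, and that peak's summit is 1059 bp from the outermost 5′ end of cyc-2.1, just outside its window. Likewise ucr-11 lies close behind dad-1 (471.7), with that summit 1301 bp away. Without the close arrangement, 36 of 56 members were bound (64.3%), against 15.1% of 18400 protein-coding genes. The counts were 16 of 28 in complex I, 3 of 5 in complex II, 4 of 7 in complex III with cytochrome c, 6 of 7 in complex IV, 5 of 6 in complex V and 2 of 3 among assembly factors.

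The members were spread over all chromosomes, and those on X were bound throughout. All 5 on X were bound (sdha-1, ucr-2.1, ucr-2.2, asg-2 and gas-1), where 14.5% of all protein-coding genes were. On III the count was 12 of 15 (genome share 20.4%), on I 10 of 20 (18.5%), on II 6 of 11 (13.4%), on V 3 of 7 (10.7%) and on IV 4 of 11 (14.1%).

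Most summits at bound members held none of the 4 words of the first search. Within 50 bp of the strongest summit, on either strand, GAGAGA was found at 5 of 40 members (12.5%), against 23.2% of all final-list summits, 20.3% of those in coding windows and 9.03% of windows of that length centred 100 bp upstream of all protein-coding genes. The members were sdha-1, sdhd-1, ucr-2.2, cyc-2.1 and ndub-8. The longer GAGACGCAG was at ndub-8, cyc-2.1 and ucr-1 (7.5%, against 7.26%, 7.84% and 1.25%). Neither CACGTG, an E-box, nor AGGTCA, a site bound by many nuclear receptors, was found at any of the 40, against 8.13% and 4.21% of all final-list summits and 2.46% and 3.34% of the upstream windows. In all, 34 of the 40 had none of the 4. The share of all final-list summits with none of the 4 was not counted, and each word alone was absent from most of them. The shorter GAGAC, added after the sequences above were seen, was at 14 of 40 (35.0%), against 33.0% of all final-list summits and 13.5% of the upstream windows. A match is a string of letters and not a shown binding site. These windows at the members had a median GC content of 49.0%, from 26.7% to 67.3%, against 45.5% for all final-list summits in coding windows.

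Genes that serve the pathway outside the 69 were bound at 17 of 36, again beside the 14.7% of all protein-coding genes. Further ATP synthase genes had 4 of 5: asb-2 (286.6), the inhibitor genes mai-1 (108.8) and mai-2 (108.3), and hpo-18 (82.1), the ε subunit. Assembly factors had 2 of 5, sco-1, which delivers copper to complex IV, at 669.8 and nuaf-1 at 123.9. The sco-1 peak ranked 72 in replicate 1 and 95 in replicate 2, above every member but cox-5A. Ubiquinone synthesis had 4 of 8, coq-5 (127.6), coq-1 (98.3), coq-3 (86.0) and coq-4 (80.1), and the hydroxylase gene clk-1 was not bound (pooled rank 4873). Of the carriers and the uncoupler 1 of 5 was bound, ant-1.1. Upkeep and transcription of mitochondrial DNA had 1 of 5, mtss-1 (149.2), with hmg-5, polg-1, rpom-1 and tfbm-1 unbound. Genes of the mitochondrial stress response had 5 of 8, the chaperone genes hsp-60 (874.3) and hsp-6 (223.1), the transcription factor gene atfs-1 (187.0), the protease gene clpp-1 (169.4) and ubl-5 (113.0), and dve-1, haf-1 and lonp-1 were not bound. Among these related genes, the summits of hpo-18, nuaf-1, coq-5, ant-1.1, mtss-1, hsp-6, hsp-60 and clpp-1 also lay in the window of another coding gene. The hsp-60 summit was 595 bp upstream of it and shared with Y22D7AL.10. A fixed list of 5 mitochondrially encoded genes had no match among the protein-coding genes used, which were those of the nuclear chromosomes.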

How the data were processed

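Peaks were deposited by the authors in the narrowPeak layout for ce10 and ce11, and the ce11 lists were used, whose chromosomes match the reference. Per the deposited file listings, each replicate's candidates came from its alignments and a control, the pooled list from both replicates, and the final (optimal) list from thresholding the irreproducible discovery rate. The peak signal, deposited by the authors, has no stated scale, so lists were compared by rank. Aligner and peak caller: not given in the sources used here. A −log10 q-value that the authors deposited is 3.99 throughout the final list and was not used. No read totals enter, and the depth of each sample is unknown.

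A summit is the 1-based start plus the offset. Windows ran 1000 bp upstream to 200 bp downstream of every transcript 5′ end (Ensembl release 115), and a gene took its strongest summit. A summit could count for several genes. Upstream neighbours were measured from a gene's outermost ends. Motif sequence came from RefSeq. Python 3.11.15, numpy 2.4.6, pandas 2.3.3 and scipy 1.17.1 were used, and window and motif code was tested on simulated data. Members, lists and the split by complex were chosen with earlier results of these data known, and 150 bp, GAGAC and the core list of complex I after seeing values. Named are all members, with the 4 strongest bound of each complex in full. Both samples form 1 group, so no test was made.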

Additional observations from a re-analysis of the deposited data

How the results depend on the processing

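Under 9 other settings 29 to 50 members were bound, against 40, and members stayed above the share of all protein-coding genes in each. Replicate 2 alone gave 39 members and replicate 1 alone 40. Keeping only the stronger part of the final list, split at its median rank, gave 30 members (43.5%) and 1716 protein-coding genes, with 3 in complex III and cytochrome c. Doubling the list from the pooled candidates gave 50 and 4715. Giving each summit to the nearest coding 5′ end left 29 members (42.0%), 11 of them in complex I, since another coding 5′ end was nearer at the 11 members lost. Narrower and wider windows gave 36 and 41, and the outermost 5′ end 39, without cox-6B. Of the 69, 18 were bound in all 10 settings and 18 in none. GAGAGA was at 5.0% of bound members within 25 bp of the summit, against 12.9% of all final-list summits and 4.46% of upstream windows. CACGTG was at 2.5% of bound members within 100 bp, against 11.3% and 4.23%. The share of members bound close behind a same-strand gene was 30.8% at 150 bp, against 9.66% of all protein-coding genes so placed. With limits of 100, 300 and 500 bp it was 33.3% to 45.0%, and the share over all genes was not counted there. No paired analysis was possible because both samples form 1 group. With 2 samples in 1 group and no read counts, no difference was tested, and the smallest detectable difference is not known.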
